A study of Mus musculus with 12 samples.

Results

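The 10 genes described here encode the urea cycle with its ammonia-handling partners and enzymes that break down amino acids in the hepatocytes around the portal vein. They were chosen by name (Cps1, Otc, Ass1, Asl, Arg1, Nags, Slc25a15, Sds, Gls2 and Hal), with earlier results of these data known. GENCODE M21 symbols were matched to the Ensembl identifiers of the count files. They are 10 of the 47729 genes in each file, and all 10 were among the 16823 genes that were tested. Liver RNA came from male C57BL/6 mice killed at 9 weeks of age, 4 per group. The healthy group (Naive_vehicle) was wild type and received vehicle, without the streptozotocin injection and high-fat diet that make the STAM model in C57BL/6 mice. The STAM-vehicle group had been injected with streptozotocin at 2 days of age, was fed a high-fat diet from week 4 and received vehicle. The STAM-I-BET151 group (STAM_treated) had the same injection and diet and received the BET bromodomain inhibitor I-BET151 by mouth at 10 mg/kg once a day from week 6 to week 9. Mice with streptozotocin alone, diet alone or I-BET151 without STAM were not analysed here, so the parts played by low insulin and by diet cannot be told apart. The methods of the study give I-BET151 in hydroxypropyl methylcellulose with Tween and the vehicle in methylcellulose, so drug and carrier cannot be told apart.

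Ammonia released from amino acids is toxic, and the liver turns it into urea. In mitochondria, Nags makes N-acetylglutamate, the activator that Cps1 needs to join ammonia and bicarbonate into carbamoyl phosphate. Otc passes that group to ornithine to give citrulline, and Slc25a15 carries ornithine into and citrulline out of the mitochondrion. In the cytosol, Ass1 and Asl build and split argininosuccinate, and Arg1 releases urea from arginine and returns ornithine. Gls2 (liver glutaminase), Sds (serine dehydratase) and Hal (histidine ammonia-lyase) free ammonia from glutamine, serine and histidine. These genes are known to be strongest near the portal vein, and glutamine synthetase (Glul), which captures the ammonia that escapes, is confined to the hepatocytes around the central vein. Glucagon, glucocorticoids and protein intake are known to raise many of them, and insulin to lower them.

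Promoter sequence was at hand in RefSeq (GRCm38.p6) for 5 of the 10 genes, and the stretch of 250 bases before the start is shown for a mitochondrial urea cycle enzyme and for the histidine enzyme, because these windows held matches to motifs of known liver or core promoter factors. The Otc stretch lies on the plus strand at chrX:10252055-10252304 and the Hal stretch on the plus strand at chr10:93488518-93488767, both ending at the base before the first annotated base of the gene. Capitals mark the matches, which are descriptions of letters and not of binding.
Otc: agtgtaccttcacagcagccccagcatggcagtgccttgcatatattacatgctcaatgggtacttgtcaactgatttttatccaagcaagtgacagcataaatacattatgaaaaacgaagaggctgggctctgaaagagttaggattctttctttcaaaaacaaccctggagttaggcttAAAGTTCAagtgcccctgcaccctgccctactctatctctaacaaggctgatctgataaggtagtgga
Hal: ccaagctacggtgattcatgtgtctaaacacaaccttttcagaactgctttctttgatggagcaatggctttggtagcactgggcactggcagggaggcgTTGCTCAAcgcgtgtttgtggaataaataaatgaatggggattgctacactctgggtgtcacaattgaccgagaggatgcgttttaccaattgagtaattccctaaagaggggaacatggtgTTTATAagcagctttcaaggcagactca
In Otc the capitals are AAAGTTCA, a letter pattern of HNF4 sites, at positions -68 to -61 from the start on the strand of the gene. In Hal the first capitals match TTGCNNAA, a C/EBP pattern, at -150 to -143, and the second are TATAAA read on the other strand at -28 to -23. Over all 32851 windows of that length and on both strands, AAAGTTCA was in 1.02%, TTGCNNAA in 9.56% and TATAAA in 12.4%. The search also covered AAAGTCCA (1.01% of windows), the cAMP response element TGACGTCA (1.55%) and its core TGACG (17.8%, a pattern that TGACGTCA contains). None of these letters was in the Otc or Hal window, and none of the 6 patterns was in the windows of Ass1, Nags or Slc25a15.

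Total counts were between 34711229 and 53365596 per mouse, and the 10 genes had between 1726 and 382753 counts in a mouse, so counting error was small beside the spread between mice. Values are in CPM, the count relative to the TMM-scaled library size. STAM-I-BET151 mouse 3 stood apart: its 10 most abundant genes held 7.95% of counts against 13.5% to 18.0% in the other 11 mice. Its 8 hepatocyte marker genes, of which Alb was the most abundant, held 3.85% against 6.36% to 10.8%. The methods of the study leave out a STAM-I-BET151 sample for its low counts without naming it, so all 4 were kept and results are also given without mouse 3. That mouse had the lowest total count, 34711229 against 35171038 in mouse 2 of its group, and the most genes with a count, 24304 against 21189 to 23637 in the other 11. In bulk liver, fewer hepatocytes of a kind and less RNA per hepatocyte cannot be told apart.

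In healthy liver, levels per kilobase of the main transcript set the cytosolic and first mitochondrial steps above the rest. Ass1 was at 2042 ± 234 CPM per kilobase (SD, n = 4), followed by Cps1 at 1392 ± 109 and Arg1 at 1345 ± 151, and those last levels differed by less than their SDs. Asl came next at 584 ± 100.0 CPM per kilobase. Sds, Gls2, Hal, Otc and Slc25a15 lay between 192 and 119.7 CPM per kilobase in that order, and the mean ± SD range of each overlapped that of its neighbour. Nags, which makes only the activator, was lowest at 30.9 ± 1.78 CPM per kilobase. With the union of all exons as the length, Ass1 (1435) and Cps1 (1392) came close together and Asl came to 292, so the order among the leading genes rests on the length chosen.

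With TMM scaling all 10 genes had lower mean levels in STAM-vehicle than in healthy liver, a direction that turned for 9 of 10 when libraries were scaled to hepatocyte markers, and their means were lowest in STAM-I-BET151 liver. The SD was 5.74% to 20.4% of the mean in healthy mice, 11.6% to 27.9% in STAM-vehicle mice and 23.3% to 56.1% in STAM-I-BET151 mice. In STAM-vehicle against healthy liver none of the 10 passed edgeR's quasi-likelihood test at an adjusted p of at most 0.05, where 7.1% of all genes did and 1.38% did with a lower level. In STAM-I-BET151 against STAM-vehicle liver none passed at 0.1, where 0.351% of all genes did and 0.256% did with a lower level. In STAM-I-BET151 against healthy liver, 4 of 10 passed at 0.05, all lower (Asl, Sds, Gls2 and Hal), where 15.1% of all genes passed and 5.25% did with a lower level. The 3 comparisons share their groups pairwise, so they are not independent of each other. The median log2 fold change of the 10 genes was -0.39 in STAM-vehicle against healthy, -0.55 in STAM-I-BET151 against STAM-vehicle and -0.89 in STAM-I-BET151 against healthy. Over all genes tested it was 0.01, 0.02 and 0.06.

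**Figure D1:**
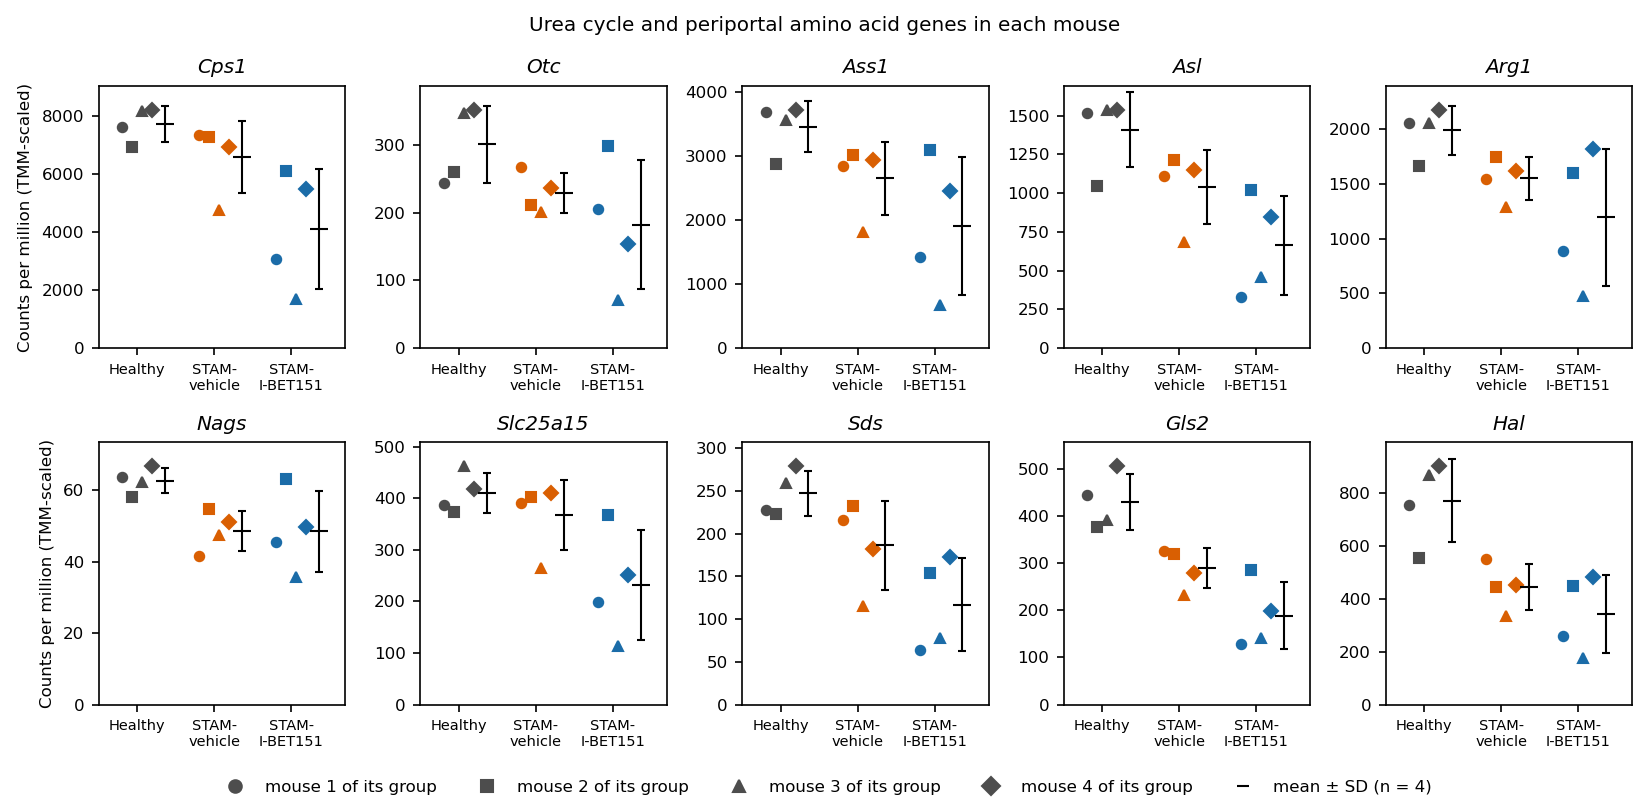
CPM of each of the 10 genes in each of the 12 mice, with a marker shape per mouse number within its group (numbers do not pair mice between groups) and the mean ± SD (n = 4) in black, on linear axes from 0. STAM-I-BET151 mice 1 and 3 lie lowest in 8 of the 10 panels, with Otc and Nags as the exceptions.

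Cps1 (chr1:67123026-67231259 in GRCm38, plus strand), the first step of the cycle, was the most abundant of the 10 by counts. Cps1 stood at 7619, 6920.2, 8176 and 8217 CPM in healthy mice 1 to 4, at 7367, 7290.3, 4763 and 6942 CPM in STAM-vehicle mice and at 3072, 6114, 1709.8 and 5503 CPM in STAM-I-BET151 mice. STAM-vehicle mice 1, 2 and 4 overlapped the healthy mice, mouse 3 lay below them, and every STAM-I-BET151 mouse lay below every healthy mouse. The log2 fold change was -0.23 ± 0.36 (SE) in STAM-vehicle against healthy (edgeR adjusted p = 0.751), -0.68 ± 0.36 in STAM-I-BET151 against STAM-vehicle (0.638) and -0.92 ± 0.36 in STAM-I-BET151 against healthy (0.0985). Cps1 thus did not pass in any comparison, and the drug group held both a mouse at 1709.8 CPM and one at 6114 CPM.

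The ornithine steps of the mitochondrion differed in their spread. Otc stood at 244, 260.3, 347 and 352 CPM in healthy mice 1 to 4, at 268, 212, 200.2 and 237 CPM in STAM-vehicle mice and at 205, 299, 71.4 and 153 CPM in STAM-I-BET151 mice. Otc (chrX:10252305-10321024, plus strand), ornithine transcarbamylase, overlapped between all groups, and STAM-I-BET151 mouse 2 was level with the healthy mean. Its log2 fold change in STAM-I-BET151 against healthy was -0.72 ± 0.32 (edgeR adjusted p = 0.136). Slc25a15 stood at 386, 374, 463 and 419 CPM in healthy mice 1 to 4, at 391, 403, 266 and 410.4 CPM in STAM-vehicle mice and at 199.7, 368, 113 and 251 CPM in STAM-I-BET151 mice. Slc25a15 (chr8:22375551-22398597, minus strand), the ornithine carrier, had STAM-vehicle mice at healthy levels apart from mouse 3, and all 4 STAM-I-BET151 mice below the lowest healthy mouse. The log2 fold change of Slc25a15 was -0.16 ± 0.28 in STAM-vehicle against healthy, -0.66 ± 0.28 in STAM-I-BET151 against STAM-vehicle and -0.82 ± 0.28 in STAM-I-BET151 against healthy, with edgeR adjusted p of 0.784, 0.531 and 0.0651.

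The cytosolic enzymes were low in the same mice. Ass1 stood at 3688, 2879, 3562 and 3725 CPM in healthy mice 1 to 4, at 2841, 3024, 1812 and 2939.7 CPM in STAM-vehicle mice and at 1428, 3096, 675 and 2456 CPM in STAM-I-BET151 mice. Ass1 (chr2:31470207-31520672, plus strand), argininosuccinate synthase, was lowest in STAM-I-BET151 mouse 3, while mouse 2 of that group was within the healthy range. Asl stood at 1517, 1048, 1537 and 1536 CPM in healthy mice 1 to 4, at 1111, 1212, 685 and 1149.9 CPM in STAM-vehicle mice and at 333, 1018, 459 and 843 CPM in STAM-I-BET151 mice. Asl (chr5:130011258-130029247, minus strand), argininosuccinate lyase, fell from healthy to STAM-I-BET151 liver by 1.09 on the log2 scale (SE 0.33, edgeR adjusted p = 0.0393), and it was the only 1 of the 5 cycle enzymes from Cps1 to Arg1 to pass. For Asl the drug mice did not overlap the healthy mice, although healthy mouse 2, at 1048 CPM, was close to STAM-I-BET151 mouse 2, at 1018 CPM. Arg1 stood at 2052, 1664, 2055 and 2174 CPM in healthy mice 1 to 4, at 1547, 1744, 1287 and 1615 CPM in STAM-vehicle mice and at 887, 1598, 473 and 1822 CPM in STAM-I-BET151 mice. Arg1 (chr10:24915221-24927484, minus strand), arginase, was at healthy levels in STAM-I-BET151 mouse 4 and lowest in mouse 3. In STAM-I-BET151 against healthy liver the log2 fold change was -0.86 ± 0.38 for Ass1 (edgeR adjusted p = 0.136) and -0.73 ± 0.34 for Arg1 (0.149). Between the other pairs of groups, Otc, Ass1 and Arg1 had log2 fold changes of -0.39, -0.38 and -0.36 in STAM-vehicle against healthy and -0.33, -0.47 and -0.37 in STAM-I-BET151 against STAM-vehicle, and Asl had -0.44 and -0.65. None of these 8 values passed, with the lowest edgeR adjusted p at 0.46.

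Nags (chr11:102145513-102149477, plus strand), the maker of the Cps1 activator, varied less than the other 9. Nags stood at 63.7, 58.1, 62.4 and 66.8 CPM in healthy mice 1 to 4, at 41.5, 54.7, 47.4 and 51.1 CPM in STAM-vehicle mice and at 45.6, 63.1, 35.8 and 49.7 CPM in STAM-I-BET151 mice. All 4 STAM-vehicle mice lay below all healthy mice, and the STAM-I-BET151 mice spread from below the STAM-vehicle range into the healthy range. The log2 fold change was -0.37 ± 0.16 in STAM-vehicle against healthy (edgeR adjusted p = 0.183) and -0.0046 in STAM-I-BET151 against STAM-vehicle (0.997), with a 95% interval of that difference from -0.34 to 0.33. Against healthy liver, the STAM-I-BET151 value was -0.37 ± 0.16 (adjusted p = 0.119). An antisense neighbour, Gm11586, had at most 92 counts in a mouse.

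With TMM scaling and all mice, the ammonia-releasing enzymes of amino acid breakdown were called lower in STAM-I-BET151 against healthy liver, 3 of 3. The share of all genes called lower there was 5.25%. None of the 3 passed when scaled to hepatocyte markers or with sequencing lane as a covariate. Of all 16823 genes, 6070 and 85 passed in those fits, 99.7% and 78.8% of them higher. Gls2 alone passed in the fit of only the healthy and STAM-I-BET151 mice. Gls2 stood at 446, 377, 393 and 507 CPM in healthy mice 1 to 4, at 327, 320.4, 234 and 279 CPM in STAM-vehicle mice and at 129, 286, 142 and 198 CPM in STAM-I-BET151 mice. Gls2 (chr10:128194457-128210004, plus strand), liver glutaminase, fell by 1.19 on the log2 scale (SE 0.24, edgeR adjusted p = 0.00602) to 43.8% of the healthy level. Every STAM-vehicle mouse was also below every healthy mouse, with a log2 fold change of -0.57 ± 0.23 that did not pass (edgeR adjusted p = 0.166). STAM-I-BET151 mouse 2 was among the STAM-vehicle mice. Hal stood at 754, 554, 869 and 901 CPM in healthy mice 1 to 4, at 549, 443, 333 and 453 CPM in STAM-vehicle mice and at 257, 447, 176 and 483 CPM in STAM-I-BET151 mice. Hal (chr10:93488768-93519304, plus strand), which opens histidine breakdown, fell by 1.17 (SE 0.30, edgeR adjusted p = 0.0193) to 44.3% of healthy. The STAM-vehicle mice lay below all healthy mice for Hal, though STAM-vehicle mouse 1 and healthy mouse 2 were close, at 549 and 554 CPM, and the log2 fold change between these groups was -0.79 ± 0.30 (adjusted p = 0.127). Sds stood at 227, 223, 259 and 279 CPM in healthy mice 1 to 4, at 216, 233, 115 and 182 CPM in STAM-vehicle mice and at 63.9, 154, 78.3 and 173 CPM in STAM-I-BET151 mice. Sds (chr5:120476526-120483932, plus strand), serine dehydratase, fell by 1.08 (SE 0.30, edgeR adjusted p = 0.0291) from healthy to STAM-I-BET151 liver, to 47.3%. In STAM-vehicle against healthy the value of Sds was -0.41 ± 0.30 (adjusted p = 0.457). In STAM-I-BET151 against STAM-vehicle the log2 fold changes were -0.62 for Gls2, -0.38 for Hal and -0.67 for Sds, with edgeR adjusted p of 0.445, 0.79 and 0.55. Gls2 overlaps Spryd4 and Sds overlaps Plbd2 and Gm15690 on the other strand, with at most 1683, 5998 and 421 counts in a mouse, and the counting is not stated to use strand.

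**Figure D2:**
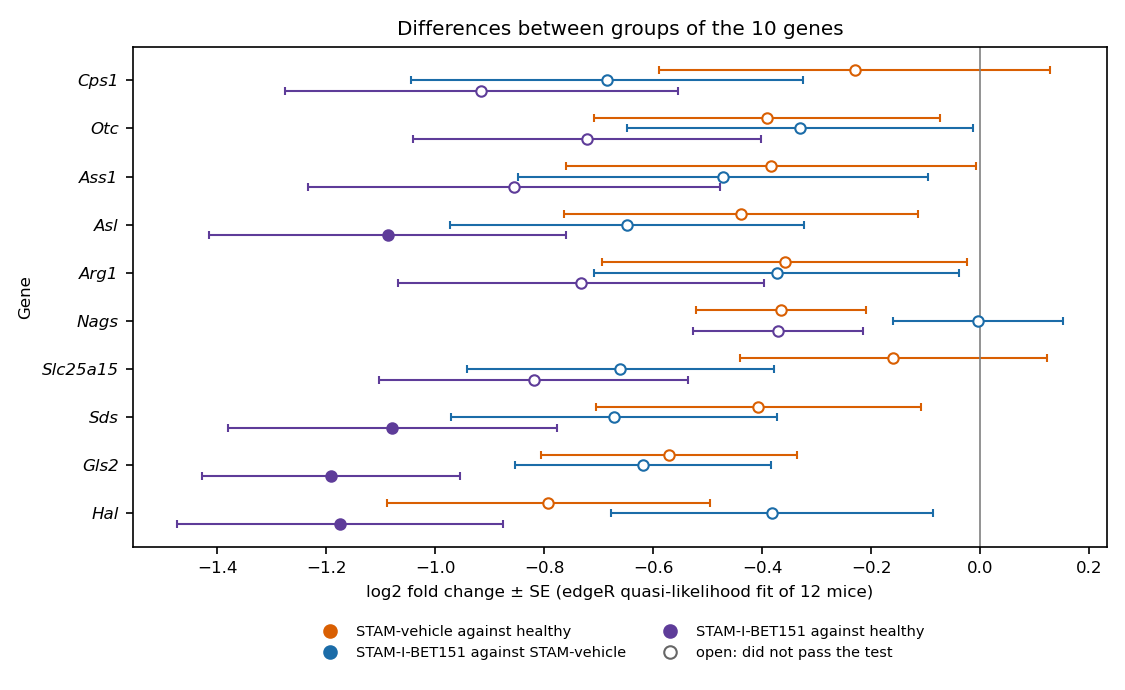
log2 fold change ± SE of each gene (rows) in the 3 comparisons (colours), from the fit of 12 mice. All points lie left of 0, and the filled points, which passed the test, are Asl, Sds, Gls2 and Hal in STAM-I-BET151 against healthy. With library sizes set by hepatocyte markers, 9 of 10 values of STAM-vehicle against healthy turn positive.

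Unadjusted p-values and the ranges of the mice add to the calls. At an unadjusted p under 0.05, 3 genes were lower in STAM-vehicle against healthy (Nags, Gls2 and Hal), 3 in STAM-I-BET151 against STAM-vehicle (Slc25a15, Sds and Gls2) and all 10 in STAM-I-BET151 against healthy. Of all genes, 22.3%, 8.68% and 32.6% had such a p, and 7.3%, 4.26% and 12.7% had it with a lower level. The 4 mice of the first group lay below the 4 of the second for 3 genes, 0 genes and 6 genes (Cps1, Asl, Slc25a15, Sds, Gls2 and Hal), where 12.2%, 2.63% and 8.85% of all genes did so. DESeq2 called 0, 0 and 6 of the 10, where it called 9.95%, 1.5% and 18% of the genes it gave an adjusted p (2.59%, 0.972% and 7.09% as lower). limma-voom with sample weights, which gave STAM-I-BET151 mouse 3 a weight of 0.0749, called 4, 2 and 9, where 33.7%, 7.16% and 29% of all genes were called (14.8%, 4.07% and 13.1% as lower). Without STAM-I-BET151 mouse 3, edgeR called 2 (Hal and Nags), 0 and 3, where 22.3%, 2.38% and 20.4% of all genes were called (10.3%, 1.46% and 9.53% as lower). In STAM-vehicle against healthy the 4 genes called with weights and the 2 called without mouse 3 are close to the share of all genes called in either direction and above the share called lower, and that difference was not tested.

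The calls in STAM-I-BET151 against healthy liver were unequal in strength. With each of the 12 mice dropped once, Gls2 passed in 12, Hal in 9, Sds in 8 and Asl in 3. The number of the 10 genes called was 1 without healthy mouse 3, without healthy mouse 4 or without STAM-I-BET151 mouse 1, 2 without healthy mouse 2 and 9 without STAM-I-BET151 mouse 2, and otherwise 3 or 4. Of all genes, 2.19%, 2.3%, 3.83%, 2.18% and 7.88% were called lower in those 5 fits. Fitted on those groups only, Gls2 alone passed in this comparison, where 7.88% of all genes did (2.05% as lower), and in STAM-vehicle against healthy Nags, Gls2 and Hal passed, where 23.9% did (11.1% as lower). Without STAM-I-BET151 mouse 3 the log2 fold change in STAM-I-BET151 against STAM-vehicle became -0.42 for Cps1, -0.06 for Otc, -0.18 for Ass1, -0.10 for Arg1, 0.12 for Nags, -0.42 for Slc25a15 and -0.16 for Hal, and it was -0.51 to -0.50 for Asl, Sds and Gls2. Against healthy liver, Otc became -0.47 and Arg1 -0.48.

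The direction depended on what the libraries were scaled to. By library totals without TMM, Cps1 and Slc25a15 were 0.04 and 0.11 higher (log2) in STAM-vehicle than in healthy liver and the other 8 lower. Scaled to the summed counts of the hepatocyte markers, 9 of the 10 were higher in STAM-vehicle than in healthy liver, with a median of 0.39, and none passed in STAM-I-BET151 against healthy, where the median was -0.19 and Nags was higher. In the latter comparison 6070 of 16823 genes passed, 99.7% of them higher. That scaling moved the median of all genes by 0.76 in STAM-vehicle against healthy and 1.20 in STAM-I-BET151 against healthy. Taken relative to the median gene, which by construction removes most of what a scaling changes, the median of the 10 in STAM-vehicle against healthy was -0.40 with TMM and -0.37 with hepatocyte scaling. The summed level of the 8 hepatocyte markers was 111516 to 134668 CPM in healthy, 61007 to 88061 in STAM-vehicle and 23949 to 114584 in STAM-I-BET151 mice, and none of the 8 was at 0. Alb alone averaged 81119, 41310 and 45126 CPM in those groups, so in healthy mice it made up most of that sum. With TMM, 7 of the 8 had lower means in STAM-vehicle against healthy and 1 (Ahsg) higher. In STAM-I-BET151 against healthy, 6 were lower and 2 (Ahsg and Fgb) higher. None of the 8 was called. The part of that sum in the differences of the 10 genes was not tested.

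Within each mouse the 10 genes moved together. STAM-I-BET151 mouse 3 was lowest of its group for 7 genes and mouse 1 for the other 3 (Asl, Sds and Gls2). The median difference from the healthy mean over the 10 genes was -1.96 (log2) in mouse 3, -1.30 in mouse 1, -0.58 in mouse 4 and -0.32 in mouse 2. The hepatocyte markers held 3.85% of counts in mouse 3 and 9.62% in mouse 1. Among STAM-vehicle mice, mouse 3 was lowest for 9 of 10 genes with a median of -0.78, and mice 1, 2 and 4 had medians of -0.30, -0.19 and -0.29. Among healthy mice, mouse 2 was lowest for 9 genes with a median of -0.19. Over the 12 mice, Pearson's r of each gene's log2 CPM with the mean z-score of the other 9 was between 0.81 (Nags) and 0.98 (Ass1), as a description, since the points share libraries and fall into 3 groups.

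**Figure D3:**
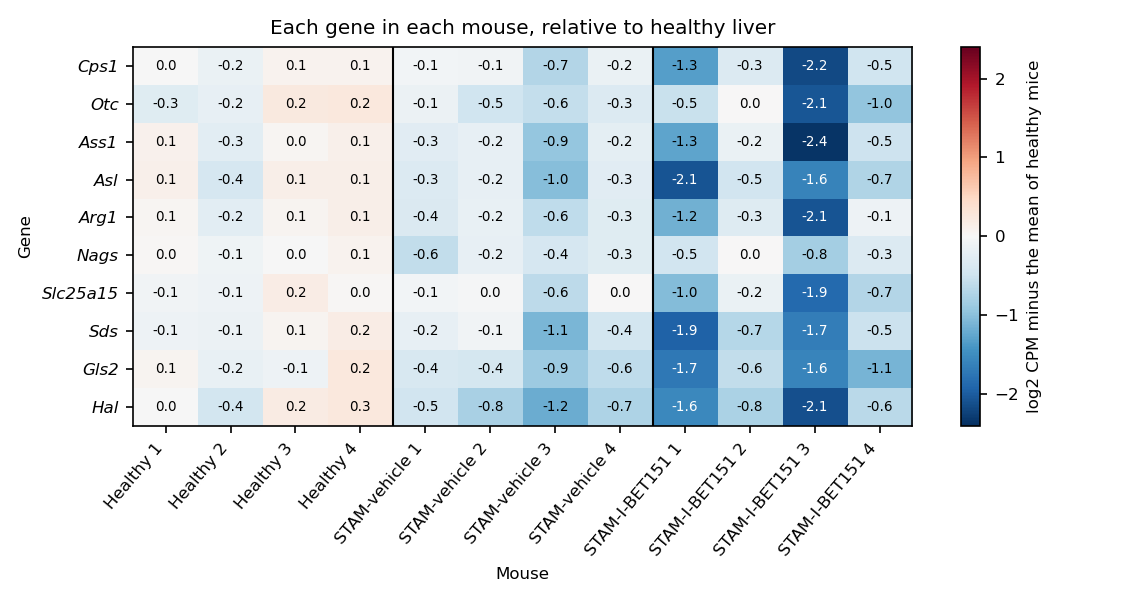
log2 CPM of each gene (rows) in each mouse (columns) minus the mean of the healthy mice, with blue for lower. STAM-I-BET151 mice 1 and 3 and STAM-vehicle mouse 3 form dark columns, with medians of -1.30, -1.96 and -0.78, while STAM-I-BET151 mouse 2 is near STAM-vehicle mice, at -0.32.

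The genes whose log2 CPM followed the 10 most closely were Pxmp2 (r = 0.99), Bhmt (0.98), Aass (0.98), Hopx (0.98) and Ahcy (0.98), over the same 12 mice. Bhmt and Ahcy are enzymes of the methionine cycle and Aass begins lysine breakdown. Because these 5 were picked for their likeness over the same mice, their log2 fold changes in STAM-I-BET151 against healthy liver, such as -0.65 for Pxmp2 and -1.07 for Hopx, are given as a description with no test.

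Glul, the pericentral counterpart that makes glutamine from ammonia, had log2 fold changes near 0 with TMM scaling. By library totals it was 0.42 higher in STAM-vehicle and 0.39 higher in STAM-I-BET151 than in healthy liver. These values were 0.90 and 1.00 when scaled to hepatocyte markers. STAM-I-BET151 against healthy passed with both of these scalings, where 3480 and 6070 of 16823 genes passed, 92.9% and 99.7% of them higher. Glul stood at 1116, 1085, 1194 and 959 CPM in healthy mice 1 to 4, at 1178, 1125, 1147 and 1381 CPM in STAM-vehicle mice and at 1266, 1331, 811 and 1128 CPM in STAM-I-BET151 mice. The ranges overlapped, and the log2 fold change was 0.15 ± 0.20 in STAM-vehicle against healthy, -0.09 ± 0.20 in STAM-I-BET151 against STAM-vehicle and 0.06 ± 0.20 in STAM-I-BET151 against healthy (edgeR adjusted p = 0.698, 0.948 and 0.859). A ratio taken within a mouse does not depend on library scaling. Per kilobase, Cps1 over Glul was 3.43, 3.21, 3.44 and 4.31 in healthy mice, 3.14, 3.26, 2.09 and 2.53 in STAM-vehicle mice and 1.22, 2.31, 1.06 and 2.45 in STAM-I-BET151 mice. Every STAM-I-BET151 mouse was below every healthy mouse, with a mean difference of -1.12 (log2) and an exact two-sided permutation p of 0.0286, the smallest that 4 against 4 mice can give. Adjusted over the 3 comparisons this p was 0.0857. The difference was -0.40 in STAM-vehicle against healthy (exact permutation p = 0.0571) and -0.72 in STAM-I-BET151 against STAM-vehicle (0.114). As ratios to Glul, 3, 0 and 8 of the 10 genes separated the mice in STAM-vehicle against healthy, STAM-I-BET151 against STAM-vehicle and STAM-I-BET151 against healthy, where 16.3%, 1.13% and 10.8% of all genes did so downwards.

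**Figure D4:**
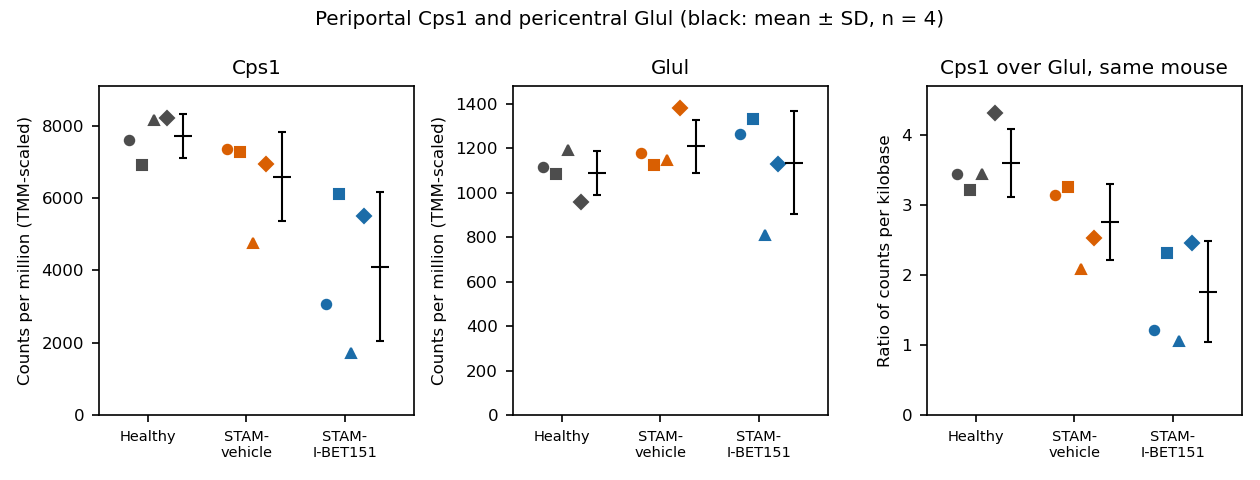
Cps1 and Glul in CPM and their within-mouse ratio of counts per kilobase, by group, with mean ± SD (n = 4) in black. Glul overlaps between groups, and the 4 STAM-I-BET151 ratios, 1.06 to 2.45, lie below the 4 healthy ratios, 3.21 to 4.31.

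Some relatives of the 10 genes were low in counts. Arg2 and Slc25a2, a mitochondrial arginase and a further ornithine carrier, stayed under 1 CPM in group mean. Sdsl, the Sds-like gene beside Sds on chromosome 5, was at 27.5 ± 5.24, 15.0 ± 3.72 and 12.7 ± 7.43 CPM in healthy, STAM-vehicle and STAM-I-BET151 liver (SD, n = 4) and fell by 1.11 in STAM-I-BET151 against healthy (SE 0.35, edgeR adjusted p = 0.0474).

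Other genes of nitrogen and amino acid metabolism were mostly lower with TMM scaling, and mostly higher against healthy liver when scaled to hepatocyte markers. With TMM, of 104 tested genes in the 9 lists around the 10 (paralogs and regulators included), 4 fell in STAM-vehicle against healthy, 1 in STAM-I-BET151 against STAM-vehicle and 26 in STAM-I-BET151 against healthy, and 0 rose in any. Of all genes, 1.38%, 0.256% and 5.25% were called lower. The median log2 fold changes of the 104 were -0.28, -0.26 and -0.52, and 0.49, -0.09 and 0.43 with hepatocyte scaling, where 1, 0 and 10 of them passed, all higher. By library totals, 2, 0 and 3 were called higher and 2, 0 and 17 lower. Without STAM-I-BET151 mouse 3, 28, 3 and 43 fell and 2, 0 and 0 rose, where 10.3%, 1.46% and 9.53% of all genes were called lower. With lane as a covariate 0, 0 and 1 fell, where 37, 0 and 85 of all genes were called in either direction. The calls in the paragraphs that follow are with TMM scaling and all 12 mice. Among 15 genes of nitrogen supply and ammonia handling, 4 fell in STAM-I-BET151 against healthy: Got1 (cytosolic aspartate transaminase, -1.34 ± 0.38, edgeR adjusted p = 0.0295), Slc7a2 (cationic amino acid carrier, -1.33 ± 0.33), Car5a (mitochondrial carbonic anhydrase, which supplies bicarbonate to Cps1, -0.94 ± 0.18) and Aqp9 (-0.57 ± 0.17). Glutamate dehydrogenase Glud1 (-0.44 ± 0.23, adjusted p = 0.19) and the aspartate carrier Slc25a13 (-0.70 ± 0.24, 0.0617) did not pass.

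In the breakdown of single amino acids, 13 of 52 genes fell in STAM-I-BET151 against healthy liver, where 5.25% of all genes did. Of 12 tested genes of histidine, serine and glycine breakdown, 5 fell, led by Agxt, the peroxisomal alanine-glyoxylate transaminase (-1.59 ± 0.23, edgeR adjusted p = 0.000997), and by Amdhd1, a later step of the Hal pathway (-0.88 ± 0.21). Agxt was also called lower in STAM-vehicle than in healthy liver (-1.23 ± 0.23, edgeR adjusted p = 0.00605). Gcat fell in both comparisons with healthy liver (-0.61 ± 0.17 in STAM-vehicle and -0.66 ± 0.17 in STAM-I-BET151), and Shmt1 (-0.66 ± 0.17) and Amt (-0.43 ± 0.11) in the latter. Of 13 genes for tyrosine, phenylalanine and tryptophan, 4 fell (Kynu, -1.20 ± 0.24, Hpd, -0.94 ± 0.29, Hgd, -0.88 ± 0.23, and Gstz1, -0.58 ± 0.15). Of 8 for methionine and cysteine, Cbs (-1.23 ± 0.23) and Csad (-0.99 ± 0.21) fell, Csad also in STAM-vehicle against healthy (-1.42 ± 0.22). Of 19 for branched chain amino acids, lysine and proline, Oat, ornithine aminotransferase, had the largest difference at -1.83 ± 0.28 (edgeR adjusted p = 0.00131), with 1369 ± 131, 813 ± 152 and 385 ± 172 CPM in the 3 groups, and Ivd fell by 0.69. Oat is known as a pericentral gene.

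**Figure D5:**
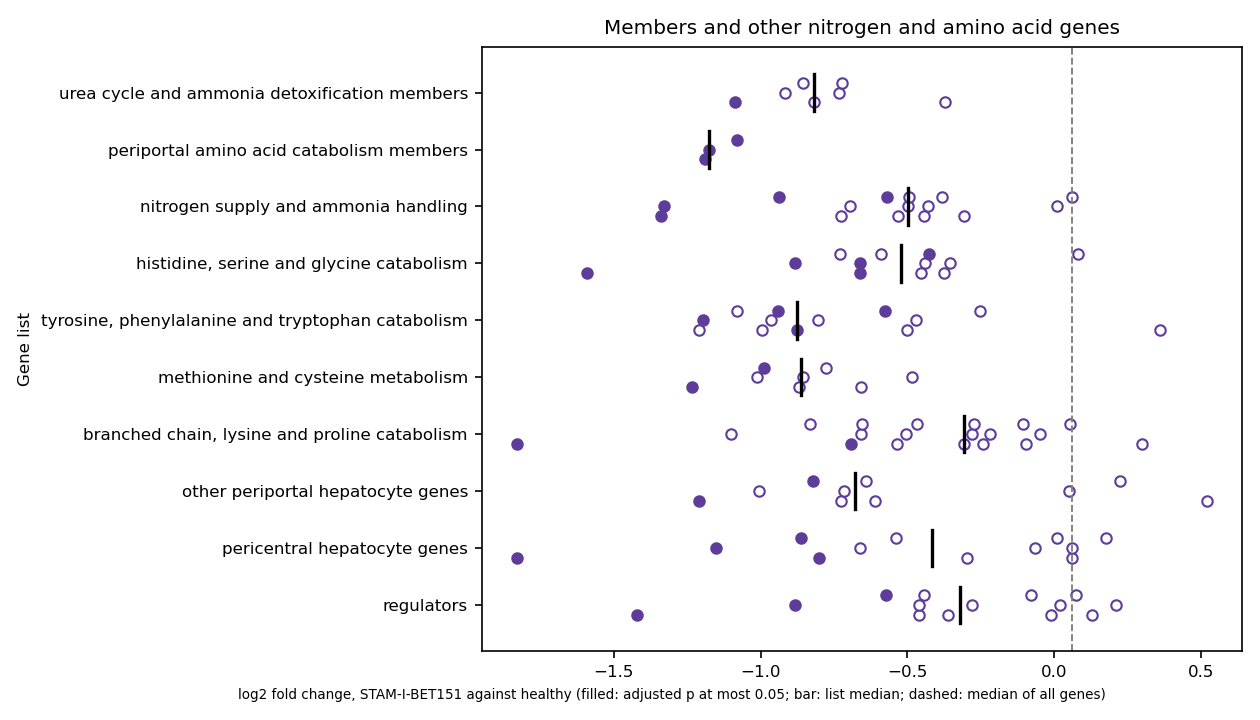
log2 fold change of STAM-I-BET151 against healthy for every tested gene of 10 lists, 1 point per gene, filled where the edgeR adjusted p was at most 0.05, with a bar at each list's median and a dashed line at the median of all genes (0.06). The urea cycle list has its median at -0.82 and the amino acid list of Gls2, Hal and Sds at -1.17, and Oat is drawn in the branched chain, lysine and proline list and in the pericentral list.

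Genes of both zones of the lobule were among those that fell in STAM-I-BET151 against healthy liver. Of 10 other periportal genes, Pck1, which opens gluconeogenesis, fell (-1.21 ± 0.29, edgeR adjusted p = 0.0142), as did Cyp2f2 (-0.82 ± 0.26). Of 12 pericentral genes 4 fell, Oat among them, with Cyp1a2 (-1.15 ± 0.26), the Wnt receptor partner Lgr5 (-0.86 ± 0.22) and Lect2 (-0.80 ± 0.22). Cyp1a2 was also called lower in STAM-vehicle than in healthy liver (-0.97 ± 0.26, edgeR adjusted p = 0.0394). The median was -0.68 in the periportal list and -0.42 in the pericentral list (0.17 and 0.59 when scaled to hepatocyte markers), and the difference between the lists was not tested.

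Among 14 regulators, Ppargc1a, a coactivator of fasting gene programmes, was the 1 gene of the 104 that fell in STAM-I-BET151 against STAM-vehicle liver. Its means were 25.1 ± 7.39, 26.7 ± 9.15 and 9.39 ± 2.51 CPM in the healthy, the STAM-vehicle and the drug-treated mice, and the log2 fold change against STAM-vehicle was -1.51 ± 0.27 (edgeR adjusted p = 0.0485). Klf15, a glucocorticoid-responsive activator of amino acid breakdown genes, fell in STAM-I-BET151 against healthy (-0.88 ± 0.19, 0.00823), as did the insulin receptor Insr (-0.57 ± 0.16). The glucagon receptor Gcgr (0.13 ± 0.25, adjusted p = 0.749), Cebpa (-0.36 ± 0.21, 0.24) and Hnf4a (-0.28 ± 0.26, 0.469) did not pass.

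Markers of other cells moved beside these values. Of 7 macrophage markers, 4 rose in STAM-vehicle and 3 in STAM-I-BET151 against healthy liver. These counts were 5 and 7 by library totals and with hepatocyte scaling, 6 and 6 without STAM-I-BET151 mouse 3, and 0 and 0 with lane as a covariate. Their summed level was 186 to 263 CPM in healthy, 302 to 579 in STAM-vehicle and 238 to 517 in STAM-I-BET151 mice. In STAM-vehicle liver mouse 3, the low mouse of the 10 genes, had the highest of these sums, whereas in STAM-I-BET151 liver mouse 3 had the lowest and mouse 1 the highest. Of 6 stellate cell markers 1 rose in STAM-vehicle (Col1a1) and 2 rose in STAM-I-BET151 (Col1a1 and Col3a1) while Reln fell, and the sums were 254 to 290 CPM, 208 to 337 and 243 to 335. Erythroid markers summed to 115 to 1649 CPM, highest in STAM-vehicle mouse 3, and 1 of its 5 (Alas2) fell in STAM-I-BET151 against healthy. T and B cell, neutrophil and pancreatic acinar markers summed to under 10 CPM in every mouse, with Cd8a higher in STAM-vehicle than in healthy, Cd4 lower in STAM-I-BET151 than in STAM-vehicle and Cela2a higher in STAM-I-BET151 than in healthy liver. Ly6g was at 0 in all healthy mice, and in each group 2 of the 6 acinar markers, not the same pair from group to group, were at 0 in all 4 mice. The 6 endothelial markers (256 to 381 CPM, none called) and the 5 cholangiocyte markers (42.8 to 89.4 CPM, Krt7 higher in STAM-I-BET151 than in healthy) had overlapping sums. The part of these cells in the results was not tested.

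Where mice of the compared groups shared a sequencing lane, read from the names of the deposited files, the direction held in most genes. In lane 2, STAM-vehicle mouse 4 was below healthy mouse 1 for 9 of 10 genes, with a median of -0.33 (log2). STAM-I-BET151 mice 4, 1 and 3 were below STAM-vehicle mice 4, 1 and 3 for 8, 9 and 10 of 10 genes in lanes 2, 6 and 7. The medians were -0.30, -1.04 and -1.08 (log2). Lanes 6 and 7 thus held the low STAM-I-BET151 mice 1 and 3, and lane 7 held no mice but mouse 3 of each STAM group. STAM-I-BET151 mice 4 and 2 were below healthy mice 1 and 4 for 10 of 10 in lanes 2 and 5. Each of these lane comparisons is 1 mouse against 1. With lane as a covariate in the fit, none of the 10 passed in any comparison, where 37, 0 and 85 of all 16823 genes did. In that fit the median in STAM-I-BET151 against healthy was -0.61, and in STAM-vehicle against healthy 7 genes turned higher (median 0.11). Lane 2 was the only lane with both a healthy and a STAM-vehicle mouse.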

How the data were processed

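Liver RNA of 12 mice was sequenced from stranded mRNA libraries with paired-end reads. The authors mapped reads with STAR 2.5.1b and deposited a file of raw read counts by gene for every mouse, in whole numbers. Their methods name htseq-count on uniquely mapped reads, the file names featureCounts, and mm10 is the build in the submitters' processing notes. Gene names and positions were taken from GENCODE M21 on GRCm38, and 47310 of 47729 identifiers matched. Counts enter as deposited, with groups from the sample labels.

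All 12 mice entered 1 fit of 3 groups in edgeR 4.0.16 (R 4.3.3), with filterByExpr at a minimum count of 10, TMM factors, the quasi-likelihood test and Benjamini-Hochberg adjustment over 16823 genes. Thresholds were 0.05, 0.1 for STAM-I-BET151 against STAM-vehicle. The SE is the fold change over the square root of F, and log2 CPM used a prior count of 2. Alternatives were DESeq2 1.42.0, limma 3.58.1 voom with sample weights, other scalings and filters, group subsets, lane, a replicate block, other thresholds and each mouse left out. Ratios to Glul, union exon lengths and values relative to the median gene were added after seeing the data. The members and lists were chosen with earlier results of these data known. All 10 members are named, as are paralogs, 7 preset genes, up to 4 called genes per other list and comparison with the largest change, and the 5 nearest genes by correlation. Marker genes, and Amt as the fifth of its list, are named outside that rule, after their values were seen. The script was tested on simulated counts. No pair of mice of a group was alike within sampling noise, with a chi-square per degree of freedom of at least 35.3 over 14219 genes. Tdh was listed and not tested for low counts.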

Additional observations from a re-analysis of the deposited data

Results flagged for a closer look

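In 30 sets of 4 mice (10 genes in 3 groups), 4 sets held a mouse whose gap to the next was above Dixon's critical value for 4 samples, a test that flags about 1 set in 20 by chance. STAM-vehicle mouse 3 lay far below the other STAM-vehicle mice for Cps1 (4763 CPM), Ass1 (1812 CPM) and Slc25a15 (266 CPM). Healthy mouse 2 lay far below the other healthy mice for Asl (1048 CPM). Because the 10 genes moved together within a mouse, the 3 values of STAM-vehicle mouse 3 are not separate observations.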

How the results depend on the processing

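With 4 mice per group, 1 mouse can decide a call. Leaving out each mouse in turn, 0 to 2 of the 10 genes were called in STAM-vehicle against healthy, 0 in STAM-I-BET151 against STAM-vehicle and 1 to 9 in STAM-I-BET151 against healthy, and 2 to 30, 0 to 3 and 13 to 48 of the 104 other pathway genes. The extreme of 30 came without STAM-I-BET151 mouse 3, and 48 without mouse 2. The median of the 10 genes kept its sign, at -0.46 to -0.28, -0.82 to -0.30 and -1.18 to -0.64. The median of the 10 kept its sign in all alternatives run for the last 2 comparisons and turned in STAM-vehicle against healthy with hepatocyte scaling (0.39) and lane (0.11). The cause was not tested for the changes below.

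In STAM-vehicle against healthy, 3 of the 10 genes were called in the fit of those 2 groups and 4 with voom weights, against 0, while the share of all genes called went from 7.1% to 23.9% and 33.7%. In STAM-I-BET151 against STAM-vehicle, voom weights called 2. In STAM-I-BET151 against healthy, the count of 4 became 0 with hepatocyte scaling (median -0.19), 0 with lane, 1 in the fit of 2 groups and 9 with voom weights. Of all genes, DESeq2 called 9.95%, 1.5% and 18% and voom weights 33.7%, 7.16% and 29% in the comparisons in that order. Hepatocyte scaling called 451, 1 and 6070 of 16823 (98.7%, 100.0% and 99.7% of them higher), and lane 37, 0 and 85. For the other pathway genes in those comparisons (4, 1 and 26, all lower), DESeq2 called 12, 5 and 52, the fit of 2 groups 34, 0 and 9, and voom weights 38, 23 and 62. Lane called 0, 0 and 1 of them, which was lower, and hepatocyte scaling called 1, 0 and 10, all higher. Library totals called 0 in STAM-I-BET151 against STAM-vehicle, and a threshold of 0.1 in place of 0.05 called 10 and 47 against healthy. The replicate block called 0, 0 and 3 of the 10 genes and 2, 0 and 20 of the others, and same-numbered mice were not alike (r from -0.35 to 0.09), so the numbers do not pair mice.

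In STAM-vehicle against healthy, hepatocyte scaling turned Cps1 to 0.55, Otc to 0.38, Ass1 to 0.40, Asl to 0.34, Arg1 to 0.41, Nags to 0.39, Slc25a15 to 0.62, Sds to 0.39 and Gls2 to 0.20. Lane turned Cps1 to 0.38, Otc to 0.25, Ass1 to 0.24, Asl to 0.023, Arg1 to 0.19, Slc25a15 to 0.42 and Sds to 0.022. Library totals turned Cps1 to 0.038 and Slc25a15 to 0.11. Nags in STAM-I-BET151 against STAM-vehicle, near 0 in the reported fit, turned to 0.19 with hepatocyte scaling, 0.0042 in the fit of 2 groups, 0.0004 with voom weights, 0.054 by library totals and, leaving out single mice, ranged from -0.16 to 0.12 (positive without STAM-vehicle mouse 2 or 4 and without STAM-I-BET151 mouse 1 or 3). Against healthy it turned to 0.58 with hepatocyte scaling.

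Over all genes, the counts called of 1195, 59 and 2546 moved by more than 1.5 times to 1892 and 268 (DESeq2, the first and the second comparison), to 451, 1 and 6070 (hepatocyte scaling), to 3879, 8 and 1262 (fit of 2 groups), to 742, 10 and 1573 (block), to 37, 0 and 85 (lane), to 5672, 1205 and 4880 (voom weights), to 6 for the second by library totals, to 101 for the second without a count filter, and to 2052, 26 and 4162 with the thresholds exchanged. Leaving out a mouse gave 546 to 3779, 13 to 403 and 1292 to 3731. Higher genes were 80.6%, 27.1% and 65.3% of calls with TMM, 95.4%, 33.3% and 92.9% by library totals, and 98.7%, 100.0% and 99.7% with hepatocyte scaling. Depth did not limit the 10 genes, whose lowest count was 1726.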
